A study of Rattus norvegicus with 12 samples.

Results

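The transcripts of 4 inflammatory mediators, Il1b, Il6, Ccl2 and Lcn2, were followed through the right lungs of 12 male Sprague-Dawley rats. They were taken by their Ensembl identifiers (ENSRNOG00000004649 for Il1b, ENSRNOG00000010278 for Il6, ENSRNOG00000007159 for Ccl2 and ENSRNOG00000013973 for Lcn2) and make up 4 of the 32623 genes in the table of counts. Each library came from the homogenised right lung of 1 rat, collected on day 28 and sequenced with QuantSeq FWD, a method that reads 1 stretch near the 3′ end of each polyadenylated transcript. The rats formed 3 groups of 4. SAL rats received saline into the trachea on day 0 and day 4 and 0.5% methylcellulose, the oral vehicle, each day for 3 weeks from day 7. BLM rats received bleomycin at 1 U/kg on the same days and the same vehicle. NINT rats received the same bleomycin and, in place of the vehicle, nintedanib at 100 mg/kg by mouth each day for 3 weeks from day 7. Bleomycin damages DNA and leaves the rodent lung fibrotic, and nintedanib is an inhibitor of receptor tyrosine kinases used to treat pulmonary fibrosis. No group received nintedanib without bleomycin, so an action of the drug on a lung without injury cannot be read from these groups, and the age of the rats is not given in the sources used here.

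The 4 genes act at different points of lung inflammation. Interleukin 1 beta (Il1b) is made as an inactive precursor, chiefly by monocytes and macrophages, is cut by the inflammasome and activates NF-kappaB in the cells that bind it. Interleukin 6 (Il6) signals through gp130 and STAT3 and drives the acute phase response. Ccl2 is the chemokine that draws monocytes out of the blood through the receptor Ccr2, and these cells become macrophages in the injured lung. Lipocalin 2 (Lcn2) binds bacterial siderophores and so withholds iron; neutrophils store it, and airway and alveolar epithelium secrete it after injury. Transcription of all of these genes can be induced through NF-kappaB, and C/EBP factors take part at several of them.

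Promoter sequences are shown as a description alone. Whether their motifs bear on the levels described below was not tested. RefSeq entries of the build GRCr8 matched 3 of the 4 genes by symbol (Il1b, Il6 and Lcn2; Ccl2 was unmatched). The counts themselves were made on rn6, so the coordinates below belong to the sequences and not to the counts. Each sequence reads 5′ to 3′ toward the gene on the minus strand and begins 250 bases before the annotated start. Those of Il1b and Il6 run to 1 base before the start, and that of Lcn2 stops 72 bases before it, where a longer annotated transcript begins. Capitals mark matches, on either strand, to the NF-kappaB consensus motif and to TTNNGNAA, a C/EBP motif.
Lcn2, chr3:36081852-36082030: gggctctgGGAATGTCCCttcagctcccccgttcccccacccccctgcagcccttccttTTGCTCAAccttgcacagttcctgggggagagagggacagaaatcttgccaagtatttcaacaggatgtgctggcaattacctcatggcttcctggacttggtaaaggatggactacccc
Il6, chr4:5894576-5894825: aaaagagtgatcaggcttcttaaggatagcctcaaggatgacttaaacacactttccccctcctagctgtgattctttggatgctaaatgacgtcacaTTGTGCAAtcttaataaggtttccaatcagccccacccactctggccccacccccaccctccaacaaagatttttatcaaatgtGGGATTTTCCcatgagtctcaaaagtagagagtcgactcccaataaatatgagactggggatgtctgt
Il1b, chr3:137036582-137036831: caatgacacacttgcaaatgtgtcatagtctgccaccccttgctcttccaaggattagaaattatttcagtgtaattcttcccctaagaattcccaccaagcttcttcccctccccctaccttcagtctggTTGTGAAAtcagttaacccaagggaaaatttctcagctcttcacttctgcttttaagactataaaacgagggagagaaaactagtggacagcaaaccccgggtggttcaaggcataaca
The Lcn2 promoter held an NF-kappaB match on the opposite strand, GGAATGTCCC, 242 to 233 bases before the start, and a C/EBP match 191 to 184 bases before it. The Il6 promoter held the NF-kappaB match GGGATTTTCC, 68 to 59 bases before the start, and a C/EBP match 152 to 145 bases before it. The window of Il1b held a C/EBP match 119 to 112 bases before the start and none to the NF-kappaB motif. No match overlapped another. Over windows of 250 bases before the start of 33469 genes, 3.54% held the NF-kappaB motif and 37.2% held TTNNGNAA. The motifs were settled after these sequences had been seen. The AP-1 letters TGANTCA, present in 6.34% of promoters, had no match in these windows. A match is a description of letters and not a bound site.

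Total counts ranged from 16572004 to 21719946 per library, and levels are given as CPM, the counts scaled to a common library total, with TMM factors, which adjust each library's total for its composition. Of 14956 genes that passed the filter on low counts, 40.8% passed edgeR's quasi-likelihood test (adjusted p below 0.05, here named a call) in BLM against SAL. The share was 5.83% for NINT against BLM and 9.3% for NINT against SAL. The median log2 fold change of all tested genes was within 0.03 of 0 in each comparison (-0.03 in NINT against SAL). On the first principal component of the kept genes other than the members, which held 53.8% of their variance, BLM replicates 3 and 4 scored 96.9 and 55.5 while the other 10 libraries lay between -46.1 and 17.9. The deposited table does not pair identifiers with gene names and 0 of 32623 identifiers matched the reference table, so the lung could not be checked against its marker genes, nor could the receptors and signalling partners of these mediators be described. In lung homogenate a change in the number of cells that make a transcript and a change in the RNA per cell cannot be told apart.

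Of the 3 members that could be tested, Ccl2 and Lcn2 rose in BLM against SAL and Il1b was not called. Il6 was removed by the filter on low counts. In NINT against BLM, Ccl2 fell, and neither Lcn2 nor Il1b was called. In NINT against SAL, Lcn2 was the member called. Genes called higher made up 18.3% of all tested genes in BLM against SAL and 4.25% in NINT against SAL, and genes called lower made up 3.46% in NINT against BLM.

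**Figure D1:**
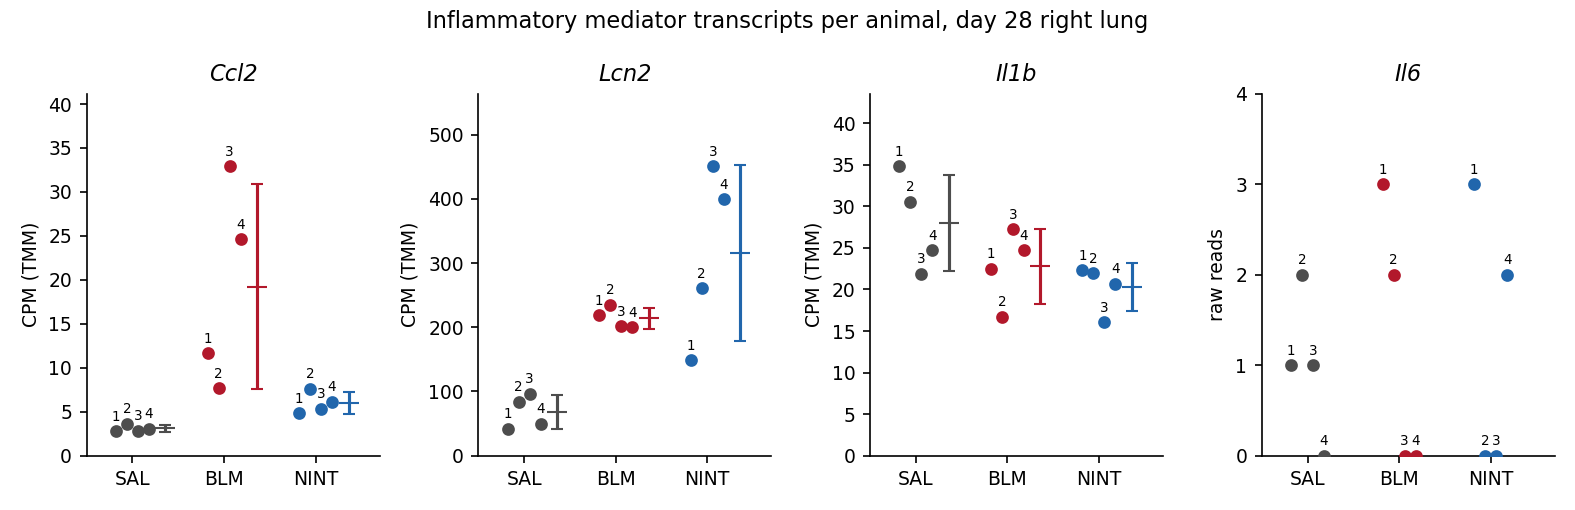
Level of each transcript in every animal, in CPM with TMM factors for Ccl2, Lcn2 and Il1b and in raw reads for Il6; points are single rats labelled with their replicate number, and the bar beside each set of points is the mean with its SD (n = 4; none for Il6). Ccl2 is high in BLM and lower in NINT, Lcn2 is high in both bleomycin groups, the Il1b groups overlap, and Il6 never exceeds 3 reads.

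Ccl2, the monocyte chemokine, was the member with the larger rise after bleomycin. In SAL rats 1 to 4 it stood at 2.81, 3.63, 2.86 and 3.09 CPM, in BLM rats at 11.6, 7.67, 33.0 and 24.6 CPM, and in NINT rats at 4.85, 7.62, 5.33 and 6.14 CPM. Every BLM rat lay above every SAL rat and above every NINT rat, and every NINT rat lay above every SAL rat. The separation of NINT from BLM was narrow at its edge, since BLM replicate 2 (7.67 CPM) and NINT replicate 2 (7.62 CPM) were nearly level. Group means were 3.10 ± 0.377 CPM in SAL, 19.2 ± 11.7 CPM in BLM and 5.99 ± 1.21 CPM in NINT (SD, n = 4 each). Ccl2 rose 6.20-fold after bleomycin (95% interval 3.49 to 11.0; log2 fold change 2.63, SE 0.38, edgeR adjusted p = 0.000777). Groups that did not overlap, with BLM higher, were found for 16.1% of tested genes, and 99.7% of genes had a smaller log2 fold change than Ccl2.

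From BLM to NINT, Ccl2 fell to 0.312 of its level (95% interval 0.181 to 0.536; log2 fold change -1.68, SE 0.36, edgeR adjusted p = 0.0308). Groups that did not overlap, with NINT lower, were found for 9.68% of tested genes in this comparison, and 0.408% of genes had a log2 fold change below that of Ccl2. The size of the fall was steadier than its call. Over 22 alternative fits the log2 fold change lay between -1.94 and -1.28, but the adjusted p-value ended above 0.05 in 10 of them, such as limma voom (adjusted p = 0.0557), a fit of the BLM and NINT libraries alone (adjusted p = 0.0972) and a fit with the replicate number as a block (adjusted p = 0.0531). Leaving out any 1 NINT rat, BLM replicate 3 or BLM replicate 4 also ended the call (edgeR adjusted p = 0.0531 to 0.0864). Without BLM replicate 3 the fall was -1.28 on the log2 scale, and the rise from SAL to BLM was 2.28 (edgeR adjusted p = 0.000646).

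Under nintedanib Ccl2 was 1.93 times its level in SAL (95% interval 1.09 to 3.42; log2 fold change 0.95, SE 0.38), which was not called (edgeR adjusted p = 0.125). The animals of these groups nevertheless did not overlap, which was so with NINT higher for 10.6% of tested genes. An exact permutation test of the log2 levels (two-sided, 4 rats against 4), chosen after seeing the data, gave an unadjusted p = 0.0286. Groups of 4 that do not overlap always give this value, the smallest of this design, so it adds nothing to the separation. Of 22 alternative fits 3 called the difference: that of the SAL and NINT libraries alone (log2 fold change 1.00, SE 0.17, edgeR adjusted p = 0.0021), that without BLM replicate 2 (edgeR adjusted p = 0.0385) and that without BLM replicate 3 (edgeR adjusted p = 0.0383). The other 19 did not, among them DESeq2 (adjusted p = 0.0529), limma voom with a weight per group (adjusted p = 0.075), the replicate block (adjusted p = 0.143) and limma voom (adjusted p = 0.304).

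**Figure D2:**
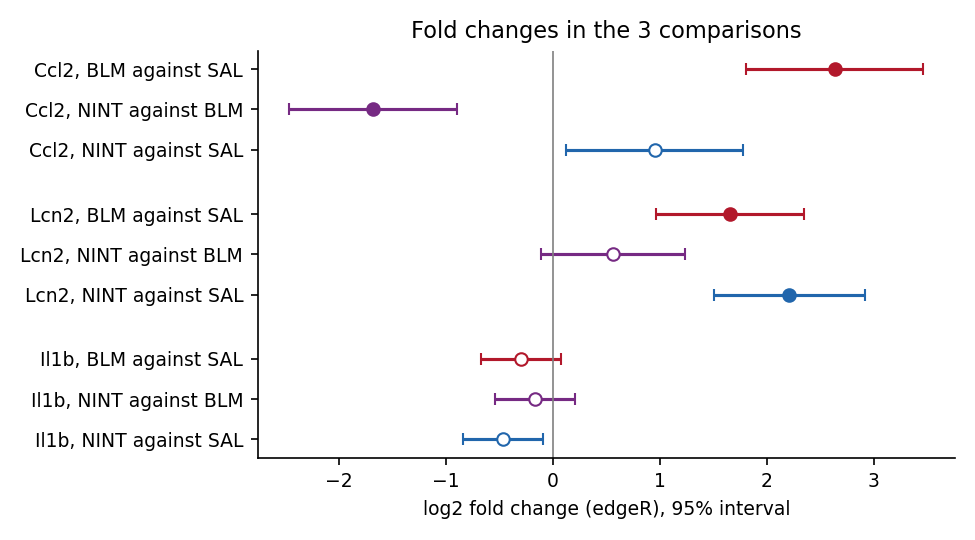
Log2 fold changes of Ccl2, Lcn2 and Il1b in the 3 comparisons (horizontal axis), with their 95% intervals from edgeR's quasi-likelihood fit; filled circles are called at an adjusted p-value under 0.05 and open circles are not. Ccl2 changes sign between BLM against SAL (2.63) and NINT against BLM (-1.68), whereas Lcn2 is at 1.65 and 0.56 in these comparisons.

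Lcn2, the siderophore-binding lipocalin, also rose after bleomycin, and its mean under nintedanib was not below that in BLM. Its levels in SAL rats 1 to 4 were 41.9, 84.1, 96.6 and 49.9 CPM. In BLM rats it stood at 219, 235, 201 and 200.2 CPM, and in NINT rats at 149, 261, 451 and 400 CPM. All 8 rats given bleomycin lay above all SAL rats. Groups that did not overlap, with SAL lower, were found for 16.1% of tested genes in BLM against SAL and for 10.6% in NINT against SAL. The BLM rats fell inside the range of the NINT rats: NINT replicate 1 was below all BLM rats and the other 3 NINT rats were above all of them. Means were 68.1 ± 26.4 CPM in SAL, 214 ± 16.5 CPM in BLM and 315 ± 137 CPM in NINT (SD, n = 4 each). Lcn2 rose 3.14-fold from SAL to BLM (95% interval 1.94 to 5.07; log2 fold change 1.65, SE 0.32, edgeR adjusted p = 0.00287) and 4.63-fold from SAL to NINT (95% interval 2.84 to 7.54; log2 fold change 2.21, SE 0.33, edgeR adjusted p = 0.0018). Both calls held in each of 22 alternative fits, in which the log2 fold change lay between 1.52 and 1.90 for BLM and between 1.99 and 2.47 for NINT. The share of tested genes with a smaller log2 fold change than Lcn2 was 99.1% in BLM against SAL and 99.9% in NINT against SAL.

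Between BLM and NINT, the Lcn2 level differed by 1.47-fold, with NINT higher, and the 95% interval of 0.924 to 2.35 reached from a small decrease to more than a doubling (log2 fold change 0.56, SE 0.31, edgeR adjusted p = 0.248). NINT was the higher group in 12 of the 16 pairings of a NINT with a BLM rat. The difference was 0.79 on the log2 scale without NINT replicate 1 (edgeR adjusted p = 0.104) and 0.33 without NINT replicate 3 (edgeR adjusted p = 0.514), and none of 22 alternative fits called it. A fall of the size seen for Ccl2 lies outside the interval, whose lower bound on the log2 scale was -0.11.

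The spread of Lcn2 and Ccl2 between rats ran differently by group. In BLM the coefficient of variation was 7.69% for Lcn2 and 60.7% for Ccl2, where counting reads alone would give 1.53% and 5.03%. In NINT it was 43.4% for Lcn2 and 20.2% for Ccl2. Among SAL rats Ccl2 varied by 12.2%, no more than the 13.3% that counting alone would give at 48 to 68 reads per library. Within BLM the order of the rats by Ccl2 (replicate 2, 1, 4, then 3) was their order on the first principal component of the other genes. Il1b, not called in any comparison, had the same order in BLM (16.7, 22.5, 24.7 and 27.2 CPM). The share of all tested genes with this order was not counted, so it cannot be read as particular to these members. Lcn2 was highest in replicate 2 and lowest in replicates 3 and 4. In NINT Ccl2 showed no such order, as replicate 2, with the highest Ccl2, had the lowest score on the component (-11.7). Whether the cell makeup of these lungs had a part in this order was not tested.

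**Figure D3:**
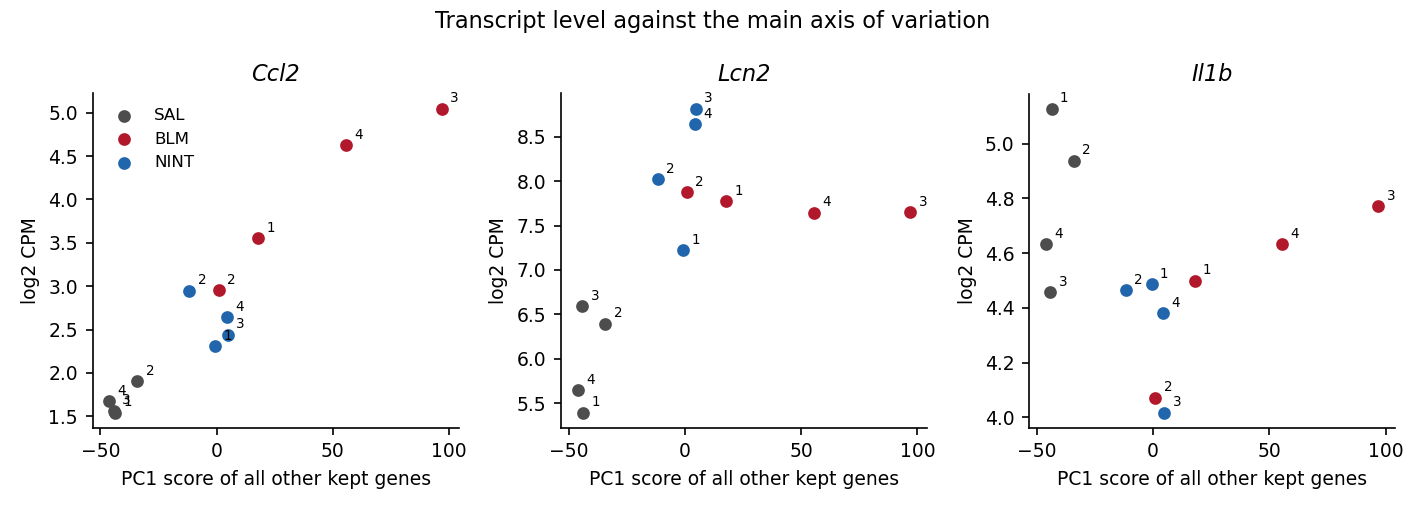
Log2 CPM of Ccl2, Lcn2 and Il1b (vertical axes) against each library's score on the first principal component of all other kept genes (horizontal axes, no unit); points are single rats labelled with their replicate number and coloured by group. BLM replicates 3 and 4, at 96.9 and 55.5, have the 2 highest Ccl2 levels but Lcn2 levels below those of the other BLM rats. Their Il1b levels are the 2 highest within BLM.

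The ratio of 2 transcripts within a library does not depend on how libraries are scaled to each other, so it was used to set the members side by side. Reads of Lcn2 per read of Ccl2 numbered 14.9, 23.2, 33.8 and 16.2 in SAL rats 1 to 4. They numbered 18.8, 30.7, 6.11 and 8.14 in BLM rats and 30.7, 34.2, 84.7 and 65.1 in NINT rats. SAL overlapped both BLM and NINT in this ratio, with SAL replicate 3 (33.8) above NINT replicate 1. All NINT rats lay above all BLM rats, though NINT replicate 1 (30.71) and BLM replicate 2 (30.65) were almost equal. Reads of Ccl2 per read of Il1b lay between 0.0805 and 0.131 in SAL, between 0.459 and 1.21 in BLM and between 0.217 and 0.347 in NINT. No 2 groups overlapped in this ratio, as was already so for Ccl2 in CPM alone. Reads of Lcn2 per read of Il1b lay between 1.20 and 4.42 in SAL, between 7.40 and 14.1 in BLM and between 6.68 and 28.0 in NINT, so that the bleomycin groups overlapped each other and not SAL. These ratios are given as a description with no test, since the genes were chosen with results of these data known. How often the ratios of other genes separate these groups was not tested.

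**Figure D4:**
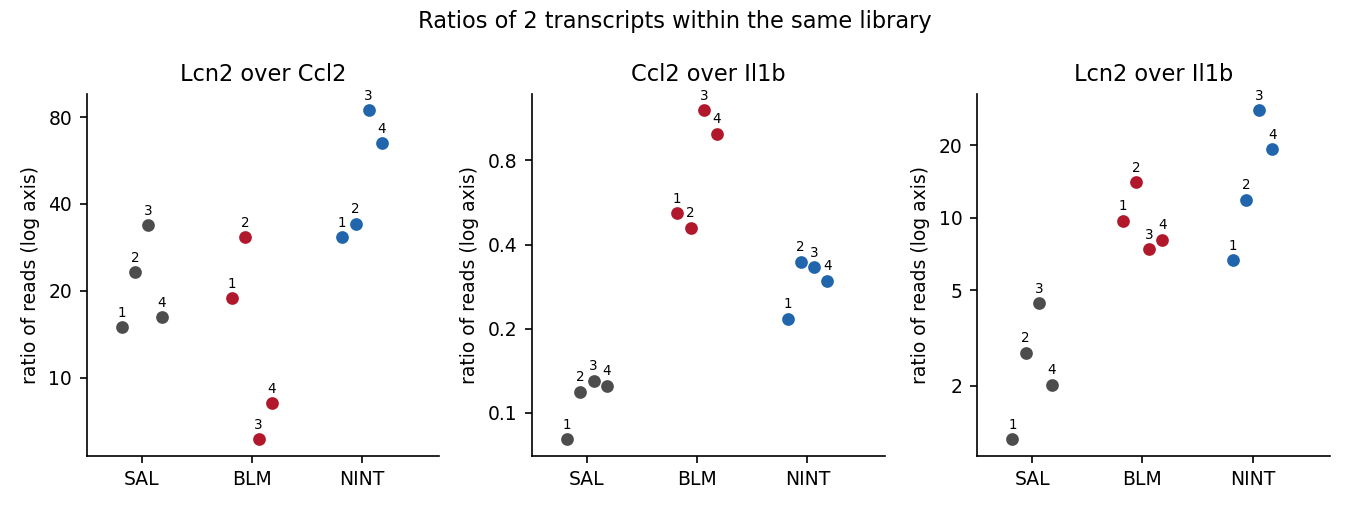
Ratio of the reads of 2 transcripts in the same library (log axes) for each rat, labelled with its replicate number, by group. The Lcn2 over Ccl2 ratio is 30.71 or more in each NINT rat, 6.11 to 30.65 in BLM and 14.9 to 33.8 in SAL. Ccl2 over Il1b separates all 3 groups, as Ccl2 in CPM does alone.

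Il1b, the inflammasome-processed cytokine, was detected in every library on day 28 and was not called in any of the 3 comparisons. Its levels were 34.9, 30.5, 21.9 and 24.7 CPM in SAL rats 1 to 4, 22.5, 16.7, 27.2 and 24.7 CPM in BLM rats and 22.3, 22.0, 16.1 and 20.7 CPM in NINT rats. The 3 groups overlapped, and the 2 highest values, in SAL replicates 1 and 2, belonged to rats that had no bleomycin. Means were 28.0 ± 5.83 CPM in SAL, 22.8 ± 4.48 CPM in BLM and 20.3 ± 2.88 CPM in NINT (SD, n = 4 each). Il1b was not called in BLM against SAL, where its fold was 0.815 (95% interval 0.629 to 1.06; edgeR adjusted p = 0.186), nor in NINT against BLM, where it was 0.889 (95% interval 0.685 to 1.15; edgeR adjusted p = 0.529). In NINT against SAL the fold was 0.724 (95% interval 0.558 to 0.940), which was not called either (edgeR adjusted p = 0.105). At 383 to 596 reads per SAL library, counting error alone gave a coefficient of variation of 4.45%, against the 20.8% seen between SAL rats.

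Il6 was barely detected. SAL rats 1 to 4 gave 1, 2, 1 and 0 reads, BLM rats 3, 2, 0 and 0 reads, and NINT rats 3, 0, 0 and 2 reads. No Il6 read was found in SAL replicate 4, BLM replicates 3 and 4 or NINT replicates 2 and 3. Where a library held no read, a limit of 3 reads corresponds to 0.139 to 0.157 CPM. The exact Poisson 95% interval reaches 3.69 reads for a count of 0 and runs from 0.619 to 8.77 reads for a count of 3; these limits cover counting error alone. No library exceeded 3 reads, so no fold is given, and a difference between groups at so low a level could not be resolved at this depth. In a fit without the filter edgeR gave adjusted p = 0.945 for BLM against SAL, 1 for NINT against BLM and 0.941 for NINT against SAL, and exact permutation tests of the CPM (two-sided, 4 rats against 4, unadjusted) gave p = 1, 0.83 and 0.91.

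The genes whose pattern was most like that of Ccl2 and of Lcn2 were sought among 10340 other genes with a mean of at least 5 CPM, by the Pearson correlation of log2 CPM over the 12 libraries. For Ccl2 it was ENSRNOG00000012807 (r = 0.985), which ranged over 10.9 to 15.1 CPM (SAL), 27.2 to 87.6 CPM (BLM) and 22.6 to 26.2 CPM (NINT). Every BLM rat lay above every other rat in it. A correlation over 0.9 with Ccl2 was shared by 306 genes, one with Lcn2 by 12 and one with Il1b by 1. Between the members, r over the 12 libraries was -0.07 for Il1b and Ccl2, -0.74 for Il1b and Lcn2 and 0.52 for Ccl2 and Lcn2. For Lcn2 the most alike was ENSRNOG00000013300 (r = 0.952), with a much smaller range, from 191 CPM in SAL replicate 1 to 257 CPM in NINT replicate 4. The next most alike to Lcn2 (r = 0.941) ranged over 53.6 to 75.5 CPM (SAL), 204 to 270 CPM (BLM) and 124 to 358 CPM (NINT). These genes were picked for this likeness in the same 12 libraries, so their levels are a description with no test, and the files give none of them a name.

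**Figure D5:**
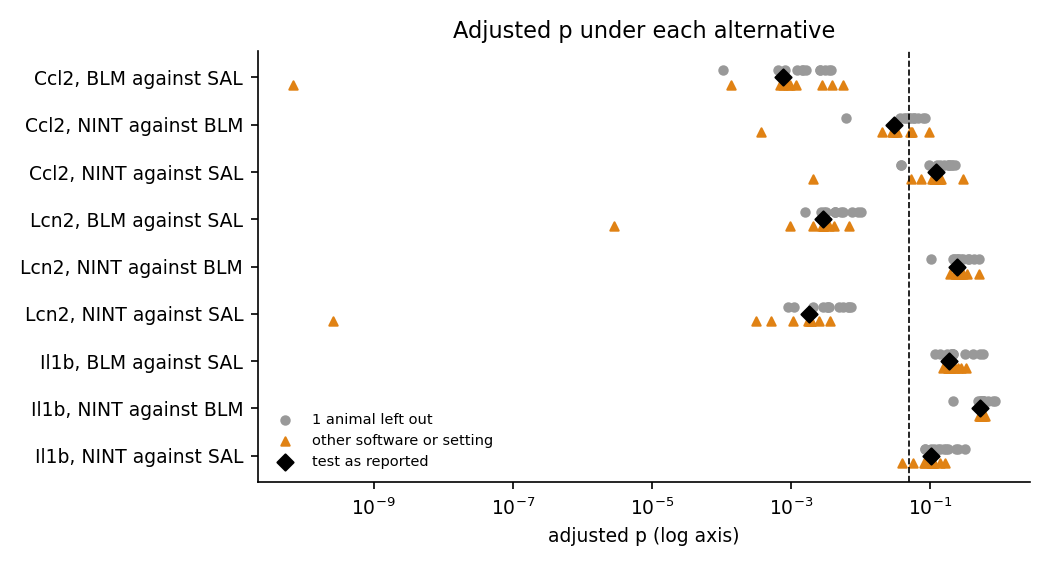
Adjusted p-value (log axis) of Ccl2, Lcn2 and Il1b in each comparison: black diamonds are the values reported, grey circles the fits without 1 animal, orange triangles other software or settings, and the dashed line is 0.05. The fall of Ccl2 in NINT against BLM straddles the line (0.000379 to 0.0972), while both rises of Lcn2 stay below it.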

How the data were processed

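The authors deposited raw counts, whole numbers of reads per Ensembl gene, in 1 table of 32623 genes and 12 libraries; 7 further columns of the table were empty and were not used. Libraries were QuantSeq FWD, per the labels' protocols. FastQC, STAR, HTSeq and the build rn6 are named in the submitters' processing notes. Versions, annotation and strand setting are not given in the sources used here, so how reads of overlapping genes were counted is not known. Columns were assigned to animals by name. Counts were analysed in R 4.3.3 with edgeR 4.0.16. Genes were kept by filterByExpr (minimum count 10, minimum total 15), TMM factors were applied, and a quasi-likelihood model with 1 coefficient per group was fitted to all 12 libraries. The Benjamini-Hochberg adjustment ran over 14956 genes, and a gene was called under 0.05. Log2 CPM used a prior count of 2. The SE was computed from the log2 fold change and the F statistic of the quasi-likelihood test, and the 95% intervals from this SE. Ratios, levels and correlations are descriptions. Alternatives used DESeq2 1.42.0, limma 3.58.1, other factors and filters, subsets of the groups, a replicate block and each animal left out. The procedures were tested on simulated data. Libraries of 1 group differed beyond sampling noise (lowest chi-square divided by its degrees of freedom 9.72), so all 12 animals were counted. The labels name 4 animals per group and no batch. The members and lists were chosen with earlier results of these data known. All 4 members were named, and for likeness the 2 closest genes by Pearson correlation were to be named for each member. As the files pair no identifiers with names, 2 identifiers are printed, that of the closest gene for each member called in BLM against SAL. Lists of pathway and marker genes (187 symbols) could not be matched and were not used here.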

Additional observations from a re-analysis of the deposited data

Results flagged for a closer look

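Each member's CPM, each ratio, and the total, TMM factor and component score of the libraries were searched, within each group of 4, for 1 animal far from the rest. Of 30 such sets 1 had such an animal, where chance gives about 1.5. The TMM factor of SAL replicate 3 was 0.993, against 1.027 to 1.032 in the other SAL libraries. No member's own values had an animal of this kind. When libraries were scaled by their totals alone, the log2 fold change in BLM against SAL was 2.595 for Ccl2, 1.62 for Lcn2 and -0.33 for Il1b. Without SAL replicate 3 these were 2.63, 1.90 and -0.37. The part of this library's composition in the values was not tested further.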

How the results depend on the processing

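Robust estimation, a weight per group in limma voom and the exact permutation tests of log2 CPM were chosen after seeing the data. No direction of Ccl2, Lcn2 or Il1b reversed under the alternatives run, and the calls of Ccl2 and Lcn2 in BLM against SAL and of Lcn2 in NINT against SAL held in all 22 fits; the exact permutation tests are unadjusted. The fall of Ccl2 in NINT against BLM was no longer called with limma voom (log2 fold change -1.49), limma voom with a weight per group (-1.49, adjusted p = 0.0519), the 2 groups alone (-1.68) or the replicate block (-1.57). Leaving out 1 animal gave -1.94 to -1.28. Ccl2 in NINT against SAL was called with the 2 groups alone (1.00), and leaving out 1 animal gave 0.81 to 1.09. Its exact permutation test (0.92, p = 0.0286) restates that the 2 groups did not overlap. Il1b in NINT against SAL was called with limma voom weighted per group (-0.45, adjusted p = 0.0399). The sign of the Il6 difference in mean CPM turned when single animals were left out: -0.0194 to 0.0328 in BLM against SAL, -0.0274 to 0.0342 in NINT against BLM and -0.0176 to 0.0365 in NINT against SAL, all with adjusted p of at least 0.742. The number of genes called in NINT against BLM was 872, then 1960 with DESeq2, 28 with the 2 groups alone, 370 with the replicate block, 147 with a weight per group and 17 to 2857 without 1 animal (17 without NINT replicate 2, 2857 without BLM replicate 2). In NINT against SAL it was 1391, and 2295 with DESeq2, 4248 with the 2 groups alone, 4039 with a weight per group and 675 to 3344 without 1 animal (675 without NINT replicate 3, 3344 without BLM replicate 3). In BLM against SAL it stayed within 1.5 times 6098 throughout (4717 to 7092). Replicate numbers are shared between the groups, but the labels do not say that they pair animals: deviations from the group means correlated at -0.166 to 0.203 for the 12 pairs of libraries with the same number and at -0.158 to 0.178 for the 36 others. Requiring 10 counts in each library removed Il6. The few Il6 reads leave small differences between groups unresolved, and for Ccl2 in SAL the counting error is as large as the spread between rats.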
